A study of Homo sapiens with 12 samples.

Results

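Activator protein 1 (AP-1) is a transcription factor made of pairs of basic leucine zipper proteins, and its core subunits are encoded by 7 genes, FOS, FOSB, FOSL1, FOSL2, JUN, JUNB, and JUND. These genes were taken by their symbols from a table of 60649 genes counted by bulk RNA sequencing in 2 human uterine leiomyosarcoma (uLMS) cell lines. All 7 were in the table under 1 identifier each, and all 7 were among the 21114 genes with enough counts to be tested. SK-UT-1B, a line from a primary uLMS with an epithelial-like shape, was exposed for 72 h to DMSO (2 libraries) or to MK-0752, gemcitabine, and docetaxel together (the combination, 2 libraries). SK-LMS-1, a line from a vulvar metastasis of uLMS, was exposed for 72 h to DMSO (4 libraries), to MK-0752 alone (2 libraries), or to the combination (2 libraries). Both lines are labelled wild type and were kept in the same serum-containing medium. For qPCR of the same treatments the paper describes a period without serum before exposure, and whether this held for the sequenced RNA is not given in the sources used here. MK-0752 is a gamma secretase inhibitor, a drug that blocks the cleavage that activates Notch receptors, gemcitabine is a nucleoside analog, and docetaxel stabilizes microtubules. Treatments were given at their IC30, which within the combination was a lower dose of each of the 3 drugs than its IC30 alone. So the SK-LMS-1 treatments may differ in dose as well as in drugs. The IC30 was set for each line, and in the combination the paper gives a lower dose of each drug for SK-UT-1B. The SK-LMS-1 DMSO libraries carry a first number of 2 (2 libraries) or 4 (2 libraries), which the labels do not explain. Each SK-LMS-1 treatment was set against the DMSO libraries that share its first number, which is 2 for MK-0752 and 4 for the combination. In SK-UT-1B the first number is 3 for the combination and 4 for DMSO, so there the treatment and the library set cannot be told apart. Nothing in the labels says that libraries of a group came from separate cultures, so p-values measure only the spread between these libraries. Each line stands for 1 tumor.

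FOS proteins do not form stable pairs with one another and bind DNA as partners of JUN proteins, whereas JUN proteins can also pair among themselves. The pairs bind short elements in the regulatory regions of genes for proteases, adhesion proteins, cytokines, and growth regulators. FOS, FOSB, JUN, and JUNB are immediate early genes, which serum and growth factors switch on briefly through MAP kinases, while FOSL1 and FOSL2 are induced later and can stay high in growing or migrating mesenchymal and tumor cells. JUND is made more evenly and slows growth in several cell types.

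The libraries held 25250057 to 40709885 counts. Mitochondrial genes took 3.60 to 5.81% of the counts in SK-UT-1B and 2.33 to 3.09% in SK-LMS-1. So this share moved with the line, and its part in the differences between lines was not tested. Within SK-LMS-1 the share was 2.81 and 3.09% after MK-0752 and 2.33 to 2.52% in the other libraries. Its part in the differences after MK-0752 was not tested either. Of 10 smooth muscle markers, 5 were at a mean of 1 CPM (counts per 1000000 counts) or more in SK-UT-1B and 7 in SK-LMS-1, with summed levels of 151 to 264 and 740 to 959 CPM, and MYH11 was at most 0.0692 and 0.150 CPM. MYOCD was at 0 in SK-UT-1B and DES at 0 in SK-LMS-1. Of 8 epithelial markers, none reached a mean of 1 CPM in SK-UT-1B, where EPCAM, GRHL2, KRT7, and KRT8 were at 0 and the sum was 0.637 to 3.58 CPM. In SK-LMS-1 the epithelial sum was 172 to 275 CPM, 4 markers reached 1 CPM, and CDH1 and GRHL2 were at 0. The 4 blood markers summed to at most 0.273 CPM in SK-UT-1B and 2.47 CPM in SK-LMS-1, and the 3 endothelial markers to at most 2.01 and 9.40 CPM. As in any bulk sample, fewer cells of a kind and less RNA per cell cannot be told apart.

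The main difference in the AP-1 genes was between the lines. After DMSO, SK-LMS-1 exceeded SK-UT-1B 40.2-fold in FOSL2, 32.1-fold in JUN, and 16.8-fold in FOSL1. JUNB and JUND were 1.88-fold and 1.51-fold higher, and FOS and FOSB did not differ detectably. So 3 of 7 genes passed both thresholds for differential expression (an adjusted p under 0.05 and an absolute log2 fold change, log2FC, of at least 1), all higher in SK-LMS-1. Over all genes tested, 17.0% passed both as higher and 31.1% in either direction. In 5 of 7 genes the adjusted p alone was under 0.05, against 41.0% of all genes. That of JUND was lost without SK-UT-1B DMSO replicate 1 (edgeR adjusted p = 0.0823) and without SK-LMS-1 DMSO set 2 replicate 3 (0.0612).

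**Figure D1:**
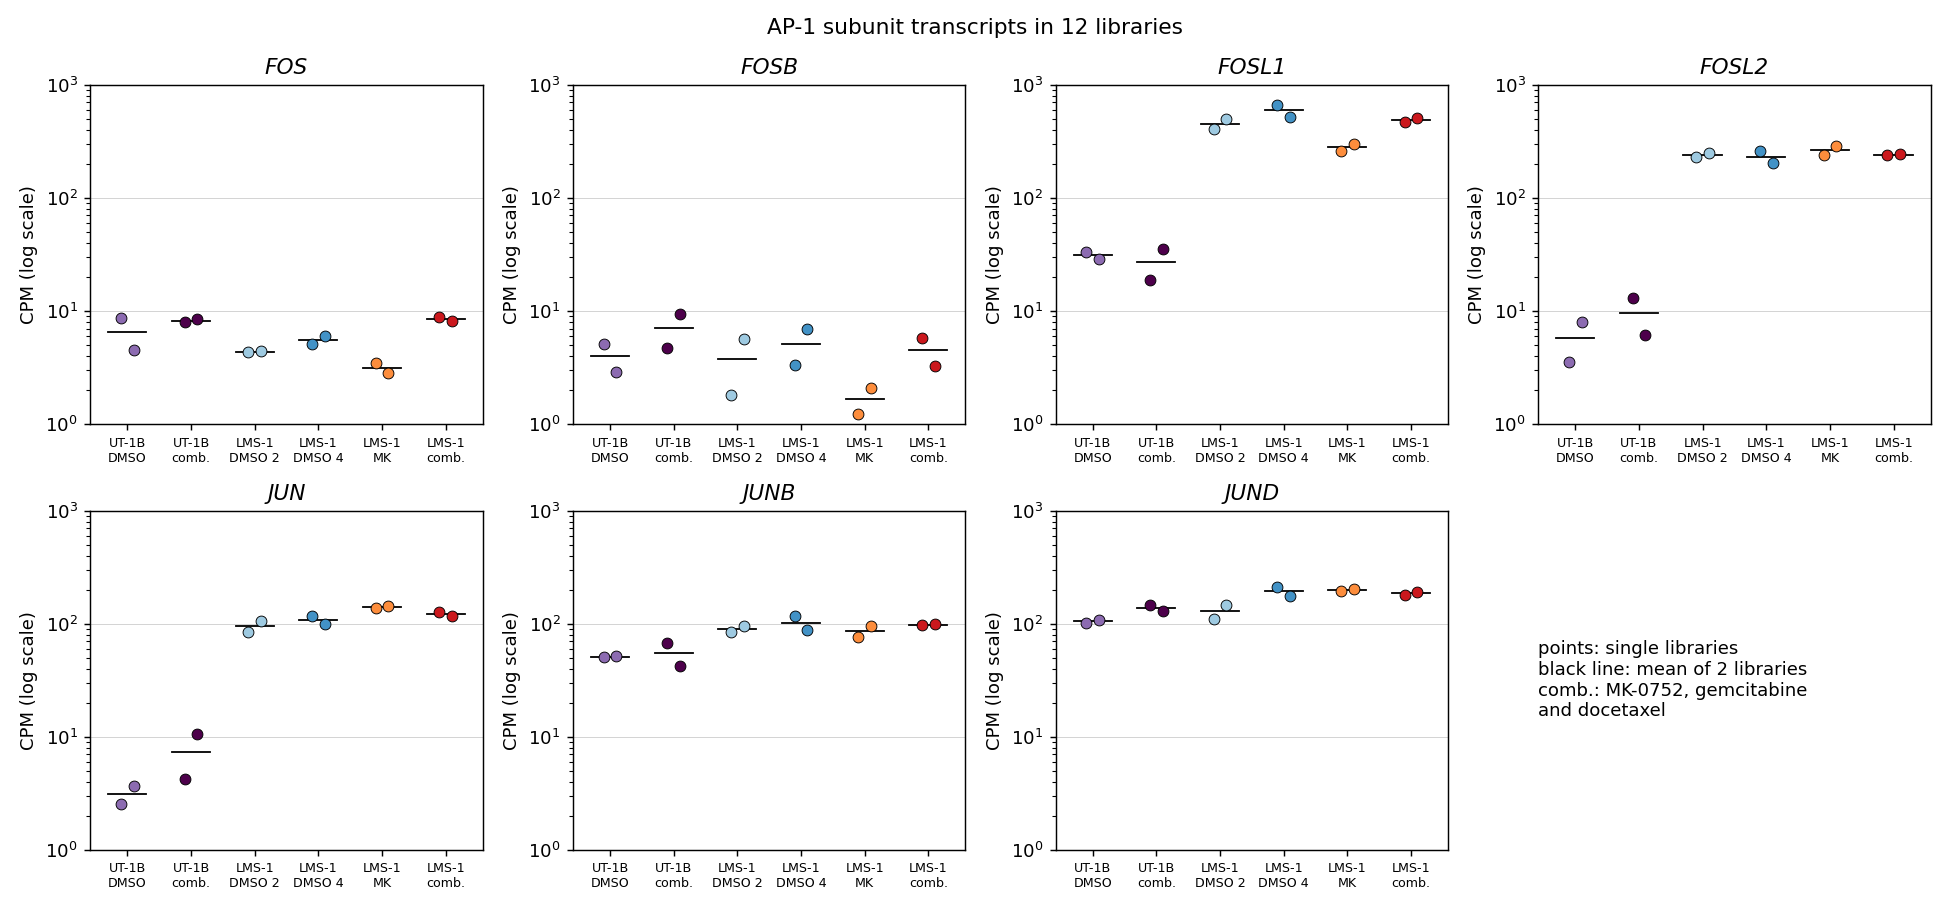
CPM of each AP-1 gene (vertical axis, log scale) in the 12 libraries, by line and treatment, with each point 1 library and each black line the mean of 2. FOSL1, FOSL2, and JUN of the 8 SK-LMS-1 libraries lie above 80 CPM and those of the 4 SK-UT-1B libraries below 40 CPM, whereas FOS and FOSB lie below 10 CPM in every library.

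Among the JUN genes, JUN itself encodes c-Jun, the strongest transcriptional activator of the JUN proteins. JUN was at 2.56 and 3.69 CPM in the SK-UT-1B DMSO libraries, which rest on 74 and 139 counts. SK-LMS-1 had 84.1 and 105 CPM in DMSO set 2 and 116 and 99.9 CPM in set 4. The lowest SK-LMS-1 library was thus far above the highest SK-UT-1B library. The difference was a log2FC of 5.00 (SE 0.35, 95% interval 4.25 to 5.76, edgeR adjusted p = 3.42e-08). After the combination, JUN was at 4.26 and 10.5 CPM in SK-UT-1B and at 126 and 118 CPM in SK-LMS-1, a log2FC of 4.05 (SE 0.34, edgeR adjusted p = 3.65e-07).

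JUN lies on chromosome 1 (hg38, 58776845 to 58784048, minus strand), has 1 exon, and overlaps no other annotated gene. JUND lies on chromosome 19 (18279694 to 18281622, minus strand) and FOS on chromosome 14 (75278826 to 75282230, plus strand), and neither overlaps another gene. Promoter windows of these 3 genes are shown because JUN differed 32.1-fold between the lines, JUND 1.51-fold, and FOS not detectably. Each window is the 250 bases before the RefSeq start on GRCh38.p14, read along the gene's strand, and windows of 6 of the 7 AP-1 genes (not FOSL1) were at hand. Capitals mark matches, on either strand, to TGACNTCA (an AP-1 and CRE-like site of 8 bases), TGACG (which lies within TGACNTCA when N is G), and TATAAA, and TGANTCA was searched as well. The windows are chr1:58784048-58784297 (minus strand), chr19:18281623-18281872 (minus strand), and chr14:75278578-75278827 (plus strand).
JUN: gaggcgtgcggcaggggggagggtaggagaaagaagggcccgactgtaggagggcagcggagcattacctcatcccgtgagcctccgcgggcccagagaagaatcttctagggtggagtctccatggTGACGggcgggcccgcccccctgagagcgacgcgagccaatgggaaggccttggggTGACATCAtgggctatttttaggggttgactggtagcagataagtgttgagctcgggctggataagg
JUND: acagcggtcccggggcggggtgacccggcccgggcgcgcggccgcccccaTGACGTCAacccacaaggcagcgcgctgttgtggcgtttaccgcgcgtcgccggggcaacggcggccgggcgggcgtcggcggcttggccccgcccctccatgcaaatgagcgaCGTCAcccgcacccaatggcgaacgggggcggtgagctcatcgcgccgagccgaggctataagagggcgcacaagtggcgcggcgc
FOS: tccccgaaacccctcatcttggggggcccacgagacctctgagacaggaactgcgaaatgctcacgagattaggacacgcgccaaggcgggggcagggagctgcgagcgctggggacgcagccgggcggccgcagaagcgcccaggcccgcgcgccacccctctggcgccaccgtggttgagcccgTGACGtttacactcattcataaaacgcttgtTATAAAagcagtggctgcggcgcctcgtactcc

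The JUN window holds 1 TGACNTCA match, which begins 67 bases before the start, and the JUND window holds 1, which begins 200 bases before it. Such a match is in 6.87% of the 35116 human promoter windows of this length. No AP-1 gene's window holds TGANTCA, which is in 6.57% of windows. TGACG is in the windows of all 6 AP-1 genes and in 21.2% of windows, and TATAAA is in those of FOS, FOSB, and JUNB and in 10.7% of windows. These are matches of letters in a reference and do not show binding.

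JUNB, which can restrain c-Jun at some promoters, was at 50.5 and 51.8 CPM in the SK-UT-1B DMSO libraries. In SK-LMS-1 it was at 84.7 and 96.4 CPM in set 2 and at 117 and 87.2 CPM in set 4, above both SK-UT-1B libraries. The log2FC was 0.91 (SE 0.20, 95% interval 0.49 to 1.32, edgeR adjusted p = 8.76e-04), below the threshold of 1. After the combination the values were 67.6 and 42.4 CPM in SK-UT-1B and 98.1 and 98.7 CPM in SK-LMS-1, a log2FC of 0.84 (SE 0.22, edgeR adjusted p = 0.00541). Without SK-UT-1B combination replicate 1 this log2FC was 1.19, past the threshold, without replicate 3 it was 0.54 (edgeR adjusted p = 0.0741), and with only the libraries of the comparison the edgeR adjusted p was 0.0550. JUNB overlaps HOOK2 on the other strand, and the strand setting of the counting is not given in the sources used here, so reads of HOOK2 may be among its counts.

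JUND had the smallest biological coefficient of variation within groups of the 7 genes, 13.8%, with JUNB at 16.9% and FOSL1 at 17.9%. The median over all genes tested was 47.3%, which takes in genes with far fewer counts. Over the 4 SK-LMS-1 DMSO libraries of both sets, JUND had a coefficient of variation of 26.7%. It was at 100 and 109 CPM in the SK-UT-1B DMSO libraries and at 109 and 148 CPM (set 2) and 210 and 177 CPM (set 4) in SK-LMS-1 after DMSO. The lines met near 109 CPM, where the highest SK-UT-1B and the lowest SK-LMS-1 library lay. The log2FC was 0.59 (SE 0.15, edgeR adjusted p = 0.00326) after DMSO and 0.43 (SE 0.17, edgeR adjusted p = 0.0563) after the combination. Within SK-LMS-1, JUND was itself 1.51-fold higher in DMSO set 4 than in set 2, with an unadjusted p of 0.00243 and an edgeR adjusted p of 0.794.

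FOSL1, which encodes FRA-1, lies on chromosome 11 (65892049 to 65900573, minus strand, 4 exons) and overlaps no other gene. FOSL1 was at 33.2 and 28.9 CPM in the SK-UT-1B DMSO libraries. SK-LMS-1 had 409 and 500 CPM in DMSO set 2 and 667 and 525 CPM in set 4. The SK-LMS-1 libraries spread over a wider range than those of SK-UT-1B, and the lines did not overlap. The log2FC was 4.07 (SE 0.26, 95% interval 3.52 to 4.62, edgeR adjusted p = 1.17e-08). After the combination, FOSL1 was at 18.7 and 35.7 CPM in SK-UT-1B and at 472 and 505 CPM in SK-LMS-1, a log2FC of 4.17 (SE 0.27, edgeR adjusted p = 2.03e-08).

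FOSL2, which encodes FRA-2, lies on chromosome 2 (28392448 to 28417317, plus strand, 4 exons). It overlaps FOSL2-AS1 on the other strand and a further noncoding gene on its own strand. FOSL2 was at 3.57 and 8.04 CPM in the SK-UT-1B DMSO libraries and at 232, 249, 258, and 203 CPM in those of SK-LMS-1. The SK-LMS-1 libraries lay close together, whereas the SK-UT-1B libraries, with 103 and 303 counts, differed more than 2-fold from each other. The log2FC was 5.33 (SE 0.45, 95% interval 4.30 to 6.36, edgeR adjusted p = 1.31e-05). After the combination it was 4.64 (SE 0.45, edgeR adjusted p = 4.41e-05), from 13.1 and 6.14 CPM in SK-UT-1B and 240 and 244 CPM in SK-LMS-1.

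FOS and FOSB, whose products carry a transactivation domain that FRA-1 and FRA-2 lack, were low in both lines. FOS was at 8.62 and 4.54 CPM in the SK-UT-1B DMSO libraries and at 4.30, 4.42, 5.11, and 5.96 CPM in those of SK-LMS-1, with all 4 inside or just below the SK-UT-1B range. The log2FC was -0.42 (SE 0.50, 95% interval -1.47 to 0.63, edgeR adjusted p = 0.546). FOSB was at 5.12 and 2.89 CPM in SK-UT-1B and at 1.81, 5.65, 3.33, and 6.92 CPM in SK-LMS-1, and the lines overlapped. Its log2FC was 0.13 (SE 0.71, 95% interval -1.35 to 1.60, edgeR adjusted p = 0.962), so a difference of 2-fold in either direction lies within the interval. The counts behind these genes were 104 to 293 for FOS and 44 to 267 for FOSB. FOSB (chromosome 19, 45467995 to 45475179, plus strand) overlaps ERCC1 on the other strand, so reads of ERCC1 may be among its counts.

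After the combination, the comparison between the lines again had 3 of 7 AP-1 genes past both thresholds, FOSL1, FOSL2, and JUN, all higher in SK-LMS-1, against 15.6% of all genes higher. FOS had a log2FC of 0.05 (95% interval -1.17 to 1.27) and FOSB of -0.64 (95% interval -2.34 to 1.06). That of FOSB ranged from -1.13 to -0.058 as single libraries were left out. Over all treatments, FOSL1, FOSL2, JUN, and JUNB were higher in each of the 8 SK-LMS-1 libraries than in all 4 of SK-UT-1B. Of all genes tested, 19.4% were separated in that direction. FOS, FOSB, and JUND overlapped between the lines.

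Levels of different genes were compared per kilobase of the canonical transcript, which takes out transcript length. On this scale the 7 genes summed to 106 to 132 CPM per kb in SK-UT-1B and to 376 to 642 CPM per kb in SK-LMS-1. The largest component in SK-UT-1B was JUND, which made up 49.1 to 57.3% of the sum. JUNB made up 19.0 to 28.1%, FOSL1 8.34 to 18.4%, and JUN 0.742 to 2.64%. In SK-LMS-1, FOSL1 was the main component in every library, with 40.9 to 61.1%, ahead of JUND with 14.0 to 26.7%. The 4 FOS genes together took 13.7 to 24.1% in SK-UT-1B and 51.0 to 68.3% in SK-LMS-1. The order thus changed from JUND and JUNB first in SK-UT-1B to FOSL1 first in SK-LMS-1. These shares describe transcripts and say nothing of protein.

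**Figure D2:**
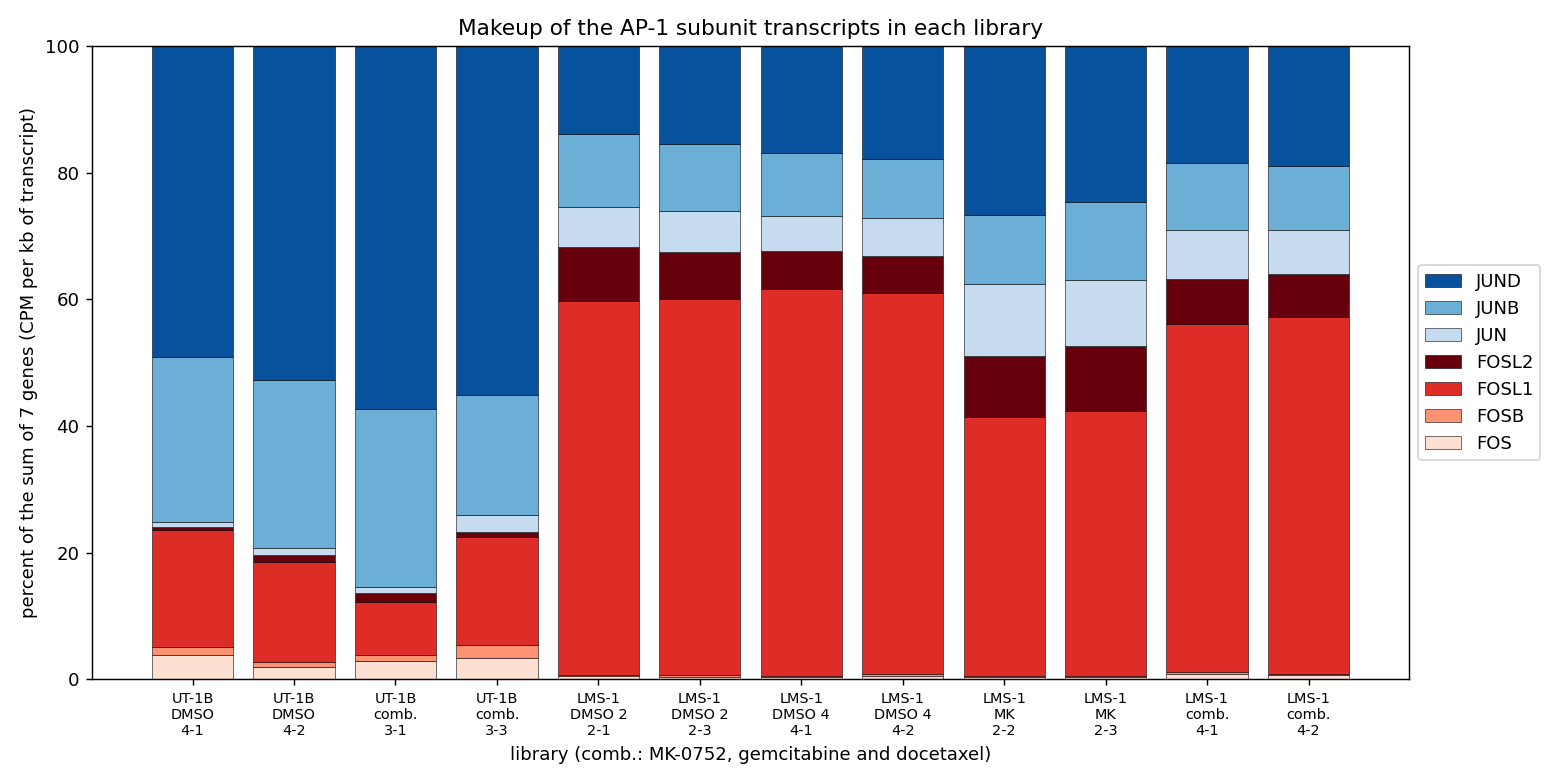
Share of each AP-1 gene (percent, vertical axis) in the summed CPM per kb of the 7 genes, with 1 bar for each of the 12 libraries, FOS genes in reds and JUN genes in blues. FOS genes take 13.7 to 24.1% in SK-UT-1B, 63.2 to 68.3% in SK-LMS-1 after DMSO or the combination, and 51.0 and 52.5% after MK-0752 alone.

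In SK-LMS-1 exposed to MK-0752 alone, no AP-1 gene passed the thresholds relative to DMSO set 2, against 0.251% of all genes. At an unadjusted p under 0.05 there were 2 of 7, FOSL1 (lower) and JUND (higher), against 6.41% of all genes. FOSL1 was at 262 and 302 CPM after MK-0752 and at 409 and 500 CPM in DMSO set 2. Its log2FC was -0.69 (SE 0.24, 95% interval -1.20 to -0.18, edgeR adjusted p = 0.485). Both MK-0752 libraries were below the other 6 SK-LMS-1 libraries, as were those of FOS, while those of JUN were above them, and 11.6% of all genes were separated in this way in either direction. With DMSO set 4 as the control the log2FC was -1.08 (edgeR adjusted p = 0.0841), and with all 4 DMSO libraries it was -0.88 (edgeR adjusted p = 0.101). FOSL1 passed both thresholds under none of the 11 alternatives. Its edgeR adjusted p alone was under 0.05 in 3 of them, at 0.00898 with no filter beyond 1 count (log2FC -0.67), 0.0281 when only the 4 libraries of this comparison were fitted (-0.67), and 0.0444 without DMSO set 2 replicate 1 (-0.83).

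JUND was at 193 and 201 CPM after MK-0752 and at 109 and 148 CPM in DMSO set 2, a log2FC of 0.62 (SE 0.17, edgeR adjusted p = 0.204). This log2FC ranged from 0.42 to 0.83 as single libraries were left out. DMSO set 4, at 210 and 177 CPM, enclosed the MK-0752 libraries, and relative to set 4 the log2FC was 0.03. So the value for JUND rests on which DMSO libraries serve as the control. JUN was at 139 and 144 CPM after MK-0752, above the other 6 SK-LMS-1 libraries (84.1 to 126 CPM), with a log2FC of 0.58 (SE 0.30, 95% interval -0.07 to 1.23, edgeR adjusted p = 0.806). FOS was at 3.45 and 2.83 CPM, below the other 6 (4.30 to 8.80 CPM), with a log2FC of -0.47 (SE 0.59, edgeR adjusted p = 1). FOSB was at 1.23 and 2.06 CPM, and the DMSO library at 1.81 CPM lay between these values. Its log2FC was -1.17 (SE 0.83, 95% interval -2.90 to 0.55, edgeR adjusted p = 0.806). It was -0.15 without DMSO set 2 replicate 3 and -1.77 without DMSO set 2 replicate 1.

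FOSL2 (241 and 287 CPM, log2FC 0.13) and JUNB (75.7 and 95.1 CPM, log2FC -0.08) overlapped the DMSO libraries. Thus 3 of 7 genes, FOS, FOSL1, and JUN, did not overlap the 4 DMSO libraries, and such separation was found for 17.1% of all genes. Within the AP-1 sum, FOSL1 took 40.9 and 42.0% after MK-0752 and 59.1 to 61.1% in the 4 DMSO libraries. JUND took 24.7 to 26.7% and 14.0 to 17.9%, and JUN 10.4 to 11.4% and 5.54 to 6.50%. A share is free of the scaling between libraries, but shares of 1 sum move together, and no test was made of them.

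In SK-LMS-1 exposed to the combination, no AP-1 gene passed the thresholds relative to DMSO set 4, against 0.0237% of all genes. None had an unadjusted p under 0.05 in edgeR, against 4.33% of all genes, and DESeq2 called none as well. FOS was at 8.80 and 8.21 CPM, above the 4 DMSO libraries (4.30 to 5.96 CPM), with a log2FC of 0.62 (SE 0.59, 95% interval -0.61 to 1.85, edgeR adjusted p = 0.983). JUN was at 126 and 118 CPM, just above the highest DMSO library at 116 CPM, with a log2FC of 0.18 (SE 0.30, edgeR adjusted p = 1). The other 5 genes overlapped the DMSO libraries, and the 7 log2FC ran from -0.29 (FOSL1) to 0.62 (FOS). Separation of these 2 libraries from the 4 DMSO libraries was found for 11.4% of all genes. The interval was narrowest for JUND (-0.41 to 0.30) and widest for FOSB (-1.87 to 1.52).

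When the effects of MK-0752 and of the combination in SK-LMS-1 were set against each other in 1 model, no AP-1 gene passed the thresholds, against 0.0379% of all genes. JUND had the smallest unadjusted p, 0.0106, with a difference of 0.68 on the log2 scale (SE 0.24, edgeR adjusted p = 0.911). Its treated libraries were alike, at 193 and 201 CPM after MK-0752 and 180 and 192 CPM after the combination. The DMSO controls were not, with set 4 above set 2 by a log2FC of 0.59. FOSL1 had a difference of -0.40 (95% interval -1.12 to 0.32) and JUN of 0.40 (95% interval -0.51 to 1.31). The 2 sets of DMSO libraries alone, compared with each other, gave no differentially expressed gene at all (0.00% of all genes in edgeR, although 5.67% had an unadjusted p under 0.05, and DESeq2 called 70 genes). No AP-1 gene was among the DESeq2 calls.

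**Figure D3:**
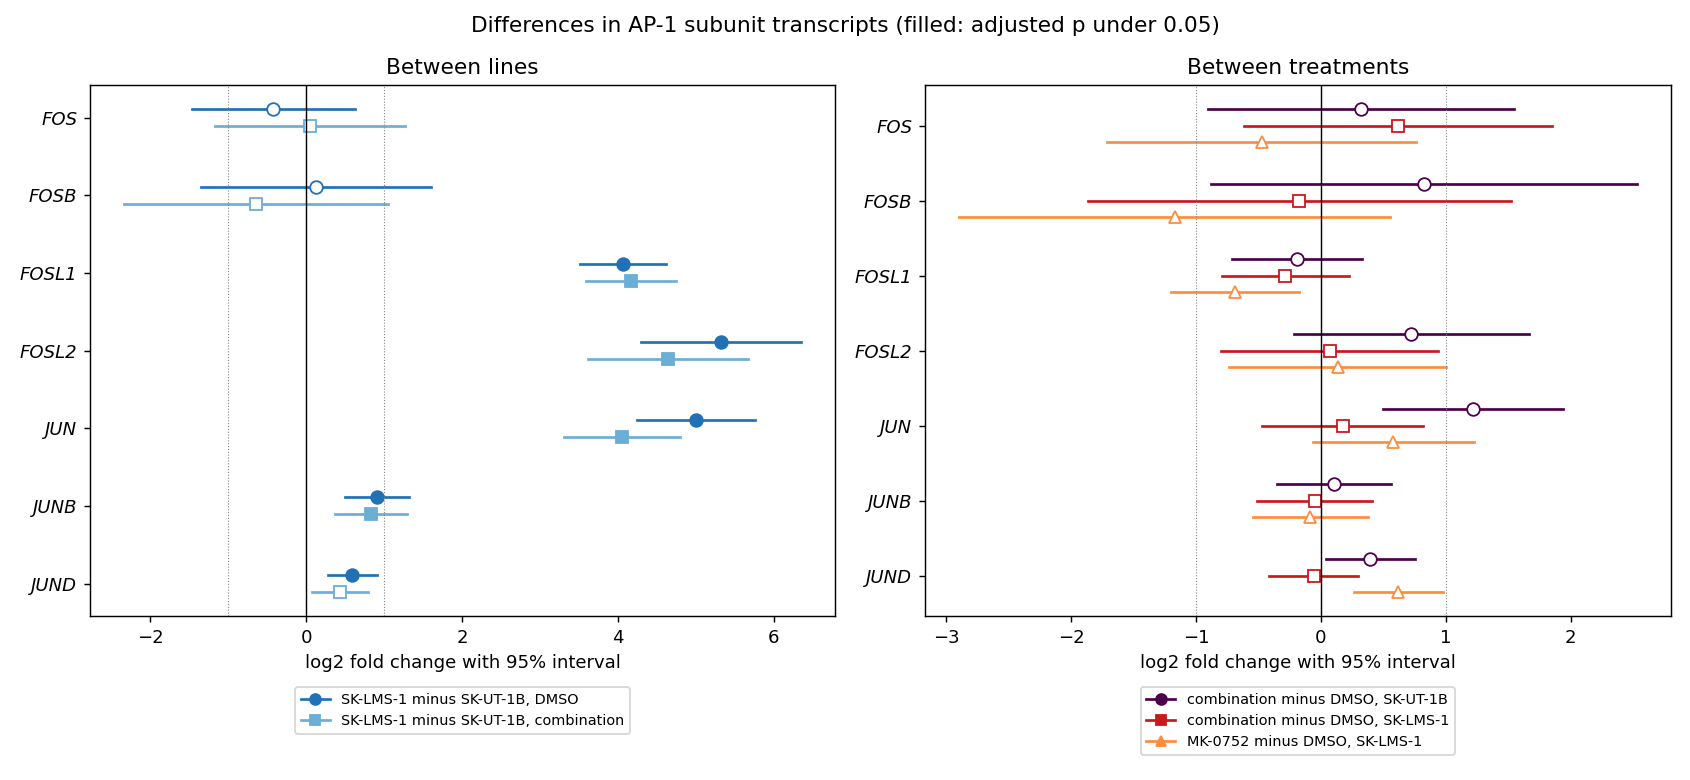
Log2 fold changes (horizontal axis) of the 7 AP-1 genes with 95% intervals from edgeR, between the lines (left) and between treatments and DMSO (right), where filled symbols have an adjusted p under 0.05 and dotted lines mark a log2FC of 1 in either direction. FOSL1, FOSL2, and JUN lie between 4.05 and 5.33 in the comparisons of lines, and no gene is filled in the comparisons of treatments.

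In SK-UT-1B exposed to the combination, no AP-1 gene passed the thresholds relative to DMSO in edgeR, against 0.559% of all genes. The groups also differ in library set (3 and 4). At an unadjusted p under 0.05 there were 2 of 7, JUN and JUND, both higher, against 10.5% of all genes. JUN was at 4.26 and 10.5 CPM after the combination (156 and 296 counts) and at 2.56 and 3.69 CPM after DMSO. The groups did not overlap, but the combination libraries differed more than 2-fold from each other. The log2FC was 1.22 (SE 0.33, 95% interval 0.50 to 1.94, unadjusted p = 0.00279, edgeR adjusted p = 0.144). DESeq2 called JUN, with the same log2FC and an adjusted p of 0.0178. The value rests on combination replicate 3: without it the log2FC was 0.44, and without combination replicate 1 it was 1.71. Without DMSO replicate 2 it was 1.52, and without DMSO replicate 1 it was 0.97. Each of these fits leaves a lone library in 1 group, whose spread is taken from the other groups, so no p-value is given.

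JUND was at 145 and 130 CPM after the combination and at 100 and 109 CPM after DMSO, a log2FC of 0.39 (SE 0.17, edgeR adjusted p = 0.392), and its groups did not overlap either. Of all genes, 32.1% had groups that did not overlap in this comparison of 2 libraries with 2. FOSL2 was at 13.1 and 6.14 CPM after the combination and at 3.57 and 8.04 CPM after DMSO, with a log2FC of 0.72 (SE 0.41, edgeR adjusted p = 0.639). Without combination replicate 3 the log2FC of FOSL2 was 1.16 and without DMSO replicate 2 it was 1.44. As single libraries were left out, it ranged from 0.029 to 1.44. Thus JUN was higher in one combination library and FOSL2 in the other, and each log2FC was larger when the library in which the gene was lower was left out. FOS (7.98 and 8.45 CPM, log2FC 0.32), FOSB (4.73 and 9.48 CPM, log2FC 0.83, and 0.24 to 1.28 as single libraries were left out), FOSL1 (log2FC -0.19), and JUNB (log2FC 0.10) overlapped the DMSO libraries.

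The effect of the combination in SK-UT-1B was also tested against that in SK-LMS-1, where the dose of each drug was higher. No AP-1 gene differed by both thresholds, against 0.232% of all genes. For JUN the difference between the effects was 1.04 on the log2 scale (SE 0.45, 95% interval 0.08 to 2.01, unadjusted p = 0.0357, edgeR adjusted p = 0.631). It ranged from 0.26 to 1.56 as single libraries were left out, with 1.56 without SK-UT-1B combination replicate 1 and 1.34 without SK-UT-1B DMSO replicate 2. For FOSL2 the difference was 0.65 (edgeR adjusted p = 0.908), and it was 1.09 without SK-UT-1B combination replicate 3 and 1.37 without SK-UT-1B DMSO replicate 2. For FOSL1 it was 0.09 (95% interval -0.63 to 0.82).

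Genes around AP-1 were summarized in 5 lists. These lists were chosen with earlier results of these data known, so their shares are a description and no test of the lists. Among 40 tested genes known as AP-1 targets, SK-LMS-1 had 32 higher and 5 lower than SK-UT-1B after DMSO, 92.5% in all, against 31.1% of all genes. After the combination 29 were higher and 4 lower, 82.5% against 25.4% of all genes. Of the 42 listed genes 2 did not pass the filter on low counts. Of the 40 tested, 13 after DMSO and 8 after the combination had at most 3 counts in every compared library of 1 line. The values of these genes rest on the line in which they were high. The other 27 had 21 higher and 5 lower after DMSO, the other 32 had 21 and 4 after the combination, and the counts are given as a description. The median log2FC of the list after DMSO was 4.53, and the median of all genes was 0. With those 13 genes set to 3 counts in each library of the line in which they were low, it was 4.08 for the list. CD44, a hyaluronan receptor, was at 2564 ± 162 CPM (SD, n = 4) in SK-LMS-1 and 18.1 ± 1.06 CPM (SD, n = 2) in SK-UT-1B after DMSO, a log2FC of 7.14. AXL, a receptor tyrosine kinase, was at 1704 ± 38.2 and 24.1 ± 3.97 CPM, a log2FC of 6.15. SERPINB2, an inhibitor of plasminogen activators, was at 383 ± 69.1 CPM in SK-LMS-1 and at 0 in SK-UT-1B, so no fold is given.

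The 5 targets lower in SK-LMS-1 were GJA1 (log2FC -3.91), ITGB4 (-3.80), SNAI2 (-3.46), TNC (-1.85), and HMOX1 (-1.54), which encode a gap junction protein, an integrin, a transcription factor, a matrix protein, and a heme-degrading enzyme. IL11, MMP9, and MMP10 were the 3 that did not pass. These 8 genes were named after their values were seen. KRT8 is also among the epithelial markers above. Whether any of these differences follows from AP-1 was not tested.

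Of the 40 targets, 2 (5.00%) rose in SK-UT-1B after the combination and none fell, against 0.559% of all genes. CDKN1A, a cell cycle inhibitor, had a log2FC of 1.18 (edgeR adjusted p = 0.0391), from 18.3 ± 5.41 to 41.4 ± 4.04 CPM (SD, n = 2 each). ITGA2, an integrin subunit, had 3 and 0 counts after DMSO and 17 and 9 after the combination (edgeR adjusted p = 0.0267). With an estimated 15.9 and 18.9 reads per molecule in these combination libraries, that call rests on very few molecules. In SK-LMS-1, ITGA2 had 4131 to 9062 counts. It was among the 13 of the 40 targets at 3 counts or fewer on 1 side of this comparison, and 1 of the other 27 was higher. After MK-0752 in SK-LMS-1, 1 target fell (2.50%, against 0.251% of all genes), the cytokine gene LIF, from 84.9 ± 11.1 to 36.9 ± 10.5 CPM (SD, n = 2 each, log2FC -1.20, edgeR adjusted p = 0.0283). No target passed after the combination in SK-LMS-1, where 2 of 40 had an unadjusted p under 0.05 (4.33% of all genes). At that p there were 15 of 40 for the combination in SK-UT-1B (10.5% of all genes) and 13 of 40 for MK-0752 (6.41% of all genes). These were not split by direction or by low counts. The 40 targets had a median log2FC of 5.13e-15 for the combination in SK-UT-1B and -0.304 for MK-0752, and all genes had 0 in both.

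Among 25 other immediate early genes, SK-LMS-1 had 12 higher and 4 lower with DMSO (64.0%, against 31.1% of all genes), and 12 and 3 with the combination (60.0%, against 25.4%). After the combination 3 of the 25 were at 3 counts or fewer in 1 line, ARC and DUSP2 in SK-LMS-1 and NR4A3 in SK-UT-1B, and the other 22 had 11 higher and 1 lower. The growth regulator gene CCN2 (log2FC 4.23), the kinase gene SGK1 (4.64), and ZFP36 (3.99), whose product speeds the decay of AU-rich transcripts, had the smallest adjusted p-values. BTG2, DUSP2, ARC, and KLF10 were the 4 lower ones after DMSO, named after their values were seen. DUSP2 had 0 to 8 counts and ARC 0 to 5 in the SK-LMS-1 libraries, so both were tested only through SK-UT-1B. There they were at 3.28 and 1.65 CPM after DMSO. Whereas FOS and FOSB did not pass the test, EGR1 rose after the combination in SK-UT-1B, from 23.5 and 23.2 to 199 and 86.2 CPM (log2FC 2.61, SE 0.31, edgeR adjusted p = 0.00160), and more than in SK-LMS-1 (difference 2.38, edgeR adjusted p = 0.0412). After MK-0752 in SK-LMS-1, CCN2 (165 ± 6.68 to 75.0 ± 3.73 CPM, log2FC -1.14) and SGK1 (75.5 ± 8.94 to 31.3 ± 3.90 CPM, log2FC -1.27) fell, as 2 of 25 genes (against 0.251% of all genes), and none rose.

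Of 15 tested genes for other leucine zipper partners, SK-LMS-1 had 4 higher and 2 lower with DMSO, and 3 and 3 with the combination. This is 40.0% of the list each time, against 31.1% and 25.4% of all genes. Both genes lower with DMSO, MAF and MAFA, had 3 counts or fewer in each SK-LMS-1 DMSO library and were tested only through SK-UT-1B, and the other 13 had 4 higher and none lower. With the combination this held for MAF, and the other 14 had 3 higher and 2 lower. CREB5 was at 67.9 ± 8.62 CPM in SK-LMS-1 and 9.91 ± 1.22 CPM in SK-UT-1B (log2FC 2.78), and MAFK, a small MAF protein without a transactivation domain, at 45.8 ± 16.8 and 1.88 ± 1.43 CPM (log2FC 4.53). MAF was at 0 in SK-LMS-1 and 13.9 ± 2.77 CPM in SK-UT-1B, so no fold is given. Of the common partners of c-Jun, ATF2 had a log2FC of -0.71 (edgeR adjusted p = 8.60e-04), short of the fold threshold, and ATF3 of 0.22 (edgeR adjusted p = 0.925). No gene of this list passed after any treatment.

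Of 21 genes for MAP kinases and serum response factors, which drive transcription of FOS and JUN, SK-LMS-1 had 1 higher and 3 lower with DMSO. This is 19.0% of the list, against 31.1% of all genes. ELK3 (log2FC 2.55) was higher, and RPS6KA1 (-2.13), ELK1 (-1.19), and MAP2K6 were lower. MAP2K6, which encodes a kinase upstream of p38, was at 0.464 ± 0.581 CPM (SD, n = 4) in SK-LMS-1 and 28.5 ± 4.15 CPM (SD, n = 2) in SK-UT-1B. It had 42 and 18 counts in DMSO set 2 of SK-LMS-1, 0 and 0 in DMSO set 4, and 51 and 13 after the combination. It was the 1 gene of this list past the thresholds for the combination in SK-LMS-1 (edgeR adjusted p = 0.0227, 4.76% of the list against 0.0237% of all genes). It also passed in the difference between the lines' combination effects (edgeR adjusted p = 0.0146, against 0.232% of all genes). In the difference between the SK-LMS-1 treatments it passed as well (edgeR adjusted p = 0.0473, against 0.0379% of all genes). These 3 calls use the 2 libraries at 0 as the control, and its counts after the combination overlapped those of DMSO set 2. With an estimated 25.8 and 25.2 reads per molecule in DMSO set 4, a count of 0 sets no useful limit, so no fold is given. ELK1, the kinase genes that follow, and ATF2, ATF3, MAFA, and NR4A3 above were named after their values were seen. The kinase genes MAPK3 (0.48), MAPK8 (-0.21), and MAPK14 (-0.23) did not pass. Between the lines after the combination 2 were higher, ELK3 and MAP2K2, and the same 3 were lower, 23.8% of the list against 25.4% of all genes. Of 10 genes for the turnover or binding of AP-1 proteins, 1 passed (10.0%, against 31.1% of all genes after DMSO and 25.4% after the combination), MEN1, whose product menin binds JunD. After DMSO, MEN1 was at 41.2 ± 5.60 CPM (SD, n = 4) in SK-LMS-1 and 82.2 ± 2.59 CPM (SD, n = 2) in SK-UT-1B (edgeR adjusted p = 6.43e-05), and after the combination its log2FC was -1.14.

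**Figure D4:**
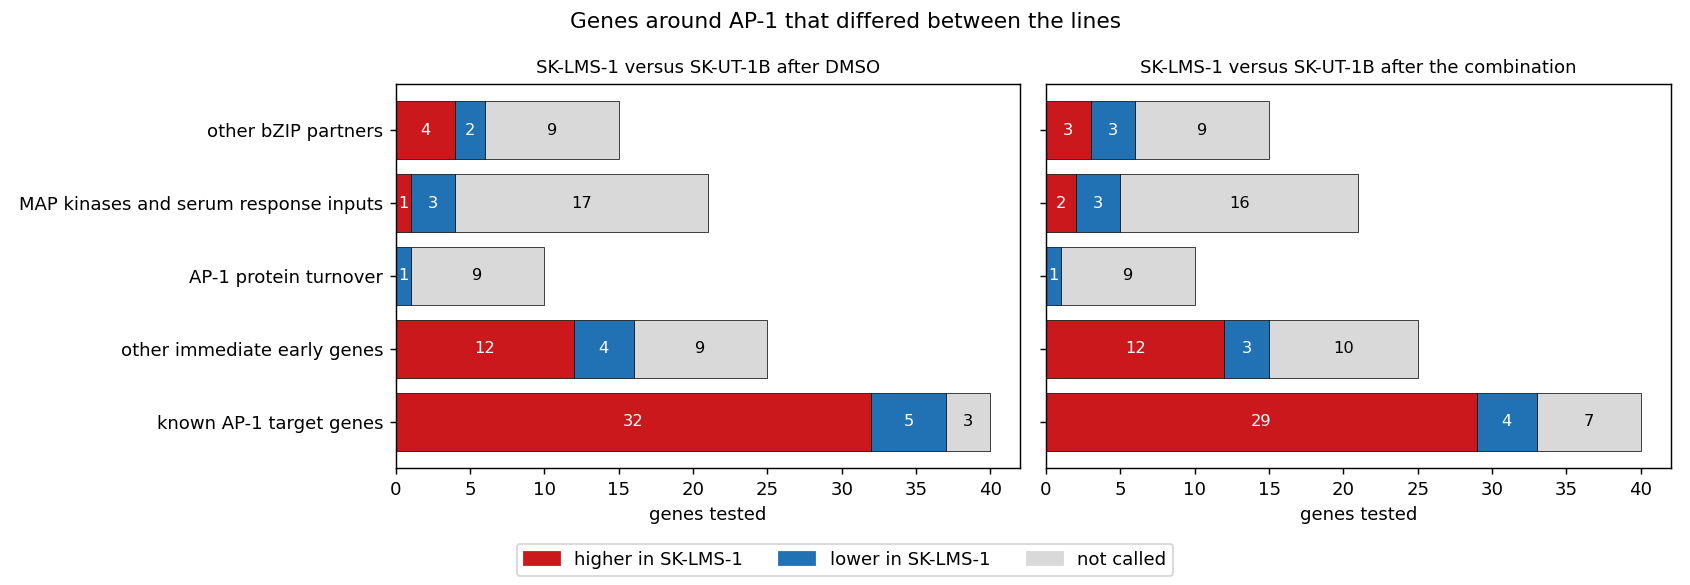
Numbers of tested genes (horizontal axis) in 5 lists around AP-1 that were higher in SK-LMS-1 (red), lower (blue), or not past both thresholds (grey), after DMSO (left) and after the combination (right). The target list has 32 higher, 5 lower, and 3 not called after DMSO, and the MAP kinase list 1, 3, and 17. The lists were chosen with earlier results of these data known.

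The genes most like each AP-1 gene across the 12 libraries, after each line's mean was taken out, were found among 12212 genes with a mean of at least 100 counts. FOSL1 was most like ACTN4 (Pearson's r 0.97), an actin crosslinker, and TOMM34 (0.97). FOSL2 was most like PSMB8 (0.97) and PRSS23 (0.97), JUN like FECH (0.95) and MAPRE3 (0.95), JUNB like DENND2A (0.96) and RING1 (0.96), and JUND like FBLN7 (0.93). FOS was most like CACFD1 (0.89) and SEC24C (0.87), and FOSB like RNF5 (0.87) and HDHD3 (0.87). No AP-1 gene was among the 2 most like another. These are the highest of 12212 values over 12 libraries that share depth and treatment, so they are given as a description.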

How the data were processed

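Bulk RNA sequencing of 12 libraries was used. Per the labels and the paper's methods, total RNA was depleted of ribosomal RNA and made into stranded libraries. Adaptors were trimmed by the authors (Trim Galore 0.3.7), reads were aligned to hg38 and counted by gene (STAR 2.7.9a), ribosomal reads were removed, and the counts were deposited without normalization. The annotation release, the strand setting of the counting, and any removal of duplicate reads are not given in the sources used here. The submitters' notes also name DESeq2 1.42.0.

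Line and treatment defined the groups, with SK-LMS-1 DMSO split by the first number of the library, so that there were 6 groups of 2. All 12 libraries were fitted together by the quasi-likelihood method of edgeR 4.0.16 (R 4.3.3, robust, after filterByExpr and TMM scaling), and p-values were adjusted over all 21114 genes tested by the Benjamini-Hochberg method. CPM are counts per 1000000 of the TMM-scaled totals. Coordinates and transcript lengths are from GENCODE 44 (hg38) and promoters from RefSeq (GRCh38.p14). From the estimated 11.1 to 27.9 reads per molecule, counts of FOSB stand for about 2.26 to 17.3 molecules, those of FOS for 4.89 to 26.3, and the lowest counts of JUN and FOSL2, in SK-UT-1B, for 3.23 and 4.50, so counting error there is larger than the counts imply.

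The 7 AP-1 genes and the 5 lists were chosen with earlier results of these data known, and the motifs after levels were seen. All 7 genes are named in each comparison, from each list the 3 genes past the thresholds with the smallest adjusted p (further genes are marked in the text), and for each AP-1 gene the 2 genes most like it by Pearson's r of log2 CPM (prior count 2). A few genes that these rules name are not reported here. The other SK-LMS-1 DMSO set as control and merged exon lengths in place of the canonical transcript were added after the data were seen. The remaining alternatives were DESeq2 1.42.0, its size factors in edgeR, other filters, fewer libraries, all 4 DMSO libraries as control, and a replicate block.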

Additional observations from a re-analysis of the deposited data

How the results depend on the processing

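Between the lines, FOSL1, FOSL2, and JUN passed both thresholds under all 11 alternatives after DMSO and all 9 after the combination, with log2FC of 3.51 to 6.04. The number of AP-1 genes past both thresholds was 3 in each of these, apart from 4 after the combination without SK-UT-1B combination replicate 1. For the combination in SK-UT-1B it was 0 in the main analysis and 1 (JUN) with DESeq2 and with no filter beyond 1 count (edgeR adjusted p = 4.60e-05), and it ranged from 0 to 2 when single libraries were left out. For the difference between the combination effects of the lines it also ranged from 0 to 2 when single libraries were left out. In these fits a lone library was assumed to vary like the other groups. For the other comparisons of treatments and of DMSO sets it was 0 under every alternative run.

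Of 315 further values of single genes that left out no library, 12 changed sign where the main value was near 0 or rested on the choice of control. JUNB in the difference between the SK-LMS-1 treatments, -0.03 in the main analysis, was 0.00346 with DESeq2, 0.00287 with DESeq2 size factors, 0.019 with no filter, 0.038 with a mean of at least 50 counts, and 0.031 with only the libraries compared. For the combination in SK-LMS-1 relative to all 4 DMSO libraries, FOSB was 0.056, JUNB 0.035, and JUND 0.24, and relative to DMSO set 2, FOSB was 0.29, FOSL1 0.10, JUNB 0.12, and JUND 0.53. None of these passed a threshold, and the cause was not tested.

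Leaving out single libraries changed the sign of 32 of 294 values, all of genes short of the thresholds in the main analysis. Between the lines, the ranges of log2FC were -0.81 to 0.073 (FOS) and -0.43 to 0.55 (FOSB) after DMSO and -0.018 to 0.092 (FOS) after the combination. For the combination in SK-UT-1B they were -0.069 to 0.84 (FOS), -0.73 to 0.17 (FOSL1), and -0.30 to 0.40 (JUNB). For the combination in SK-LMS-1 they were -0.64 to 0.47 (FOSB), -0.070 to 0.26 (FOSL2), -0.22 to 0.18 (JUNB), and -0.15 to 0.072 (JUND), and for MK-0752 -0.26 to 0.070 (JUNB). For the difference between the lines' combination effects they were -0.69 to 0.20 (FOS), -0.44 to 0.50 (FOSL1), -0.0079 to 1.37 (FOSL2), and -0.21 to 0.45 (JUNB). For the difference between the SK-LMS-1 treatments they were -1.65 to 0.017 (FOSB), -0.13 to 0.20 (FOSL2), and -0.27 to 0.13 (JUNB), and between the DMSO sets -0.17 to 1.49 (FOSB), -0.24 to 0.085 (FOSL2), and -0.051 to 0.35 (JUNB). With a replicate block (library numbers 1 and 2 shared by the combination and DMSO set 4 in SK-LMS-1) again no AP-1 gene passed, and FOSL1 had a log2FC of -0.28. The labels do not say that these numbers pair the samples, and over 12212 genes same-numbered libraries deviated with a correlation of -0.02. Over all genes DESeq2 called more than edgeR, 463 against 118 for the combination in SK-UT-1B, 181 against 53 for MK-0752, and 62 against 5 for the combination in SK-LMS-1. With merged exon lengths the FOS genes took 11.7 to 21.3% of the AP-1 sum in SK-UT-1B and 49.1 to 66.5% in SK-LMS-1.

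With 2 libraries in a group, FOS and FOSB could not be told apart from a 2-fold change in any comparison with DMSO. The sources do not say whether duplicate reads were removed.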
